A study of Mus musculus with 4 samples.

Results

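The respiratory chain and ATP synthase genes of the nucleus were followed here in mouse muscle cells that received follistatin. Members were all probes for genes whose names begin with Nduf (complex I), Uqcr (complex III), Cox4i, Cox5, Cox6, Cox7 or Cox8 (complex IV) or Atp5 (complex V), together with the complex II genes Sdha, Sdhb, Sdhc and Sdhd. The rule used names alone and no measured value. It found 126 of the 41174 probes on the array that are not controls, for 88 genes. Of these, 122 probes for 85 genes were bright enough to test, among 27017 probes tested in all, and these 27017 fall into 17848 genes and unnamed probes. Complex I had 37 tested genes, complex II had 4, complex III had 8, complex IV had 14 and complex V had 15. A further 7 genes with matching names are assembly or associated factors and not structural subunits in the usual sense (Ndufaf1 to Ndufaf4, Cox7a2l, Atp5s and Atp5sl).

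Complex I takes electrons from NADH and complex II from succinate, and both pass them through ubiquinone to complex III and then, on cytochrome c, to complex IV, which reduces oxygen. Complexes I, III and IV pump protons across the inner mitochondrial membrane, and complex V lets them back to make ATP. Most subunits are encoded in the nucleus and the rest in the mitochondrial genome, so an assembled complex draws on both, and skeletal muscle fills with these complexes as myoblasts become myotubes.

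The cells were C2C12, an established mouse myoblast line. In the follistatin group, cells held in differentiation medium received recombinant human follistatin 288 at 200 ng/ml every 24 h for 6 days, and in the untreated group they were kept the same way without it. Follistatin binds and neutralises activins and myostatin, secreted proteins that restrain muscle growth. Each of 4 biological replicates was hybridised to its own Agilent mouse array, with follistatin RNA in Cy3 (green) and untreated RNA in Cy5 (red). Both groups are the same unmodified line. The labels give 2% horse serum in the growth protocol but 10% in the sample source names, and this was not settled. A cell line under 1 dose and 1 duration limits what the groups stand for. In such bulk RNA, fewer cells of a type and less RNA per cell cannot be told apart.

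A log2 ratio is the follistatin signal over the untreated signal on 1 array, so a value of 1 is a 2-fold higher follistatin signal. The labels call the arrays dye swaps, yet follistatin is in Cy3 on all 4, so a dye bias of a probe cannot be told apart from an effect of follistatin. The arrays did not behave alike. Over all tested probes the ratios of replicates 2 and 3 correlated with r = 0.82, and the other 5 pairs of arrays had r between 0.038 and 0.32. Replicates 1, 2 and 3 share a slide and replicate 4 lay on another. Most single genes are therefore given per array, and the medians of gene groups also with the ratios of replicates 2 and 3 averaged per gene before the mean was taken.

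No member passed the test. With limma and Benjamini-Hochberg adjustment over all tested probes, 0 of 122 member probes had an adjusted p under 0.05, against 2 of all 27017 (0.0074%), and the smallest adjusted p among member probes was 0.108. Both probes that passed, for Olfr1299 and Ces3b, had lower ratios and were not well above background in the follistatin channel on any array. Without adjustment, 15 of 122 member probes (12.3%) had p under 0.05, against 20.7% of all tested probes, so the members' share was below that of the array as a whole. The test that the methods name, run on the separate channels, called 0 member probes after adjustment. Its unadjusted p was under 0.05 for 16 of 122 member probes (13.1%), against 19.2% of all tested probes. Arrays were also weighted by their fit. The weights were 2.15 and 1.92 for replicates 2 and 3, and 0.524 and 0.461 for replicates 1 and 4. The weighted limma fit called 25 of 122 member probes and 6536 of all 27017, a smaller share of the members than of all probes. Before adjustment it gave p under 0.05 for 55.7% of member probes, against 43% of all.

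The genes of oxidative phosphorylation lay mostly to 1 side of 0 on replicates 2, 3 and 4, but not to the same side. The median log2 ratio of the 85 member genes was 0.036 on replicate 1, -0.43 on replicate 2, -0.59 on replicate 3 and 0.31 on replicate 4. Over the 4 arrays this is a mean of -0.17 ± 0.42 (SD, n = 4), so the spread between arrays exceeded the mean. All genes tested had medians between -0.046 and 0.013 on the same arrays. Averaging replicates 2 and 3 gave -0.068 for the members, and replicates 1 and 4 alone gave 0.17. Leaving out replicate 4 gave -0.33, leaving out replicate 2 gave -0.081 and leaving out replicate 3 gave -0.025, so the size and sign of the average depended on which arrays entered it.

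**Figure D1:**
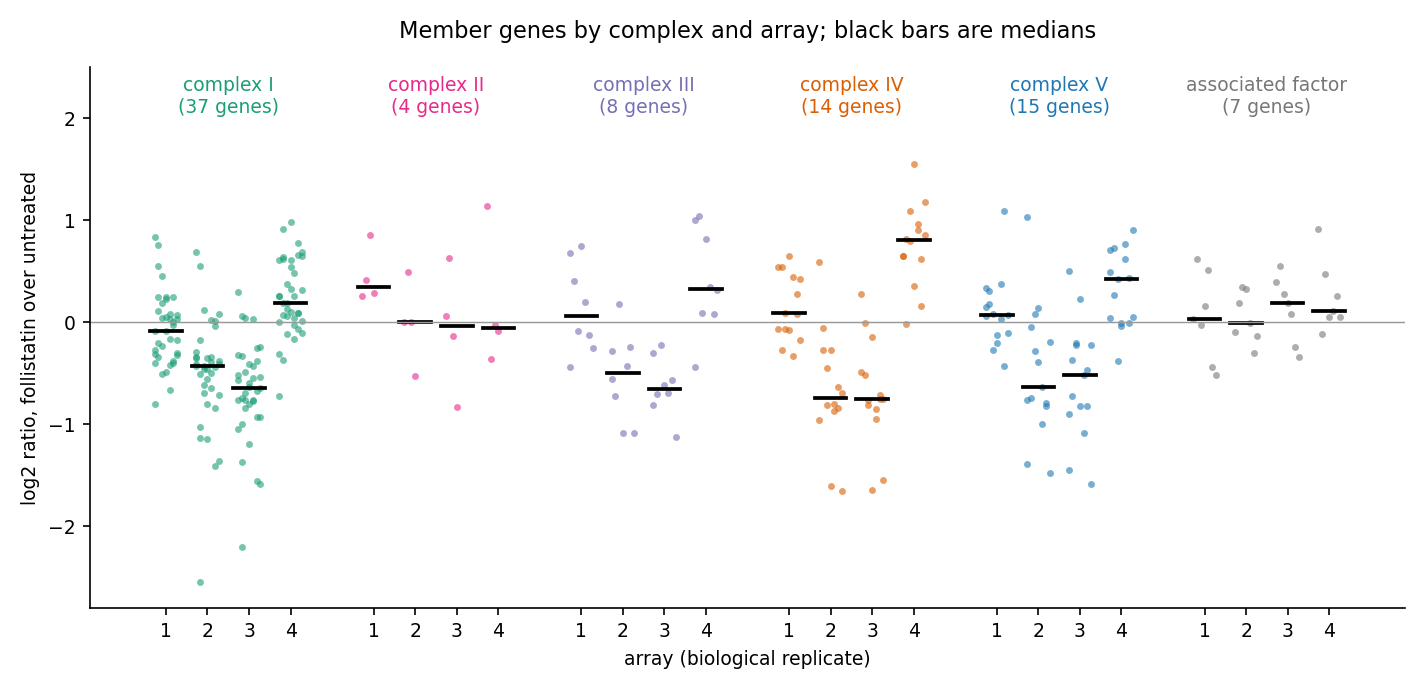
Log2 ratio of follistatin over untreated signal for each of the 85 tested member genes (points) on each of the 4 arrays, grouped by complex, with the median of each group as a black bar. Complexes I, III, IV and V lie mostly below 0 on replicates 2 and 3 and mostly above 0 on replicate 4, and complex II and the associated factors show no such pattern.

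Single arrays showed large shares of members beyond 1.6-fold. On replicate 3, 38 of 85 member genes (44.7%) were over 1.6-fold lower with follistatin, against 18.8% of all genes tested, and on replicate 2 the count was 28 (32.9%), against 14.5%. On replicate 4, 21 member genes (24.7%) were over 1.6-fold higher, against 9.46% of all genes. Lower on replicates 2 and 3 and higher on replicate 4 described 53 of 85 member genes (62.4%) and 19.2% of all genes. That pattern was chosen after the values were seen and has no test. The mean over the 4 arrays was below 0 in 61 of 85 member genes (71.8%), against 52.3% of all genes.

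Few members kept 1 sign on all arrays. There were 7 higher on every array (8.24% of 85, against 13.3% of all genes tested) and 12 lower on every array (14.1%, against 16%). The median SD over the 4 arrays was 0.46 for a member gene and 0.40 for a gene of the array at large. Member genes were bright: their median intensity lay at percentile 94.6 of the genes tested. The other 4666 genes above the intensity that 89.4% of member genes reach had array medians from -0.016 to 0.013. This set has a floor on intensity and was not matched to the members above it.

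Across the 85 member genes the ratios of replicates 2 and 3 had r = 0.91. Their difference had an SD of 0.24 over member genes, 0.32 over the 4666 other genes above the intensity floor and 0.52 over all tested probes. Repeated spots of 1 probe on a single array had an SD between 0.15 and 0.20 over 180 probes. Replicate 4 ran against both, with r = -0.48 to replicate 2 and r = -0.33 to replicate 3 over the member genes, whereas replicates 1 and 4 had r = 0.39. Over the other genes above the intensity floor replicates 2 and 4 had r = -0.059. These are correlations across genes of shared arrays, given as descriptions.

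**Figure D2:**
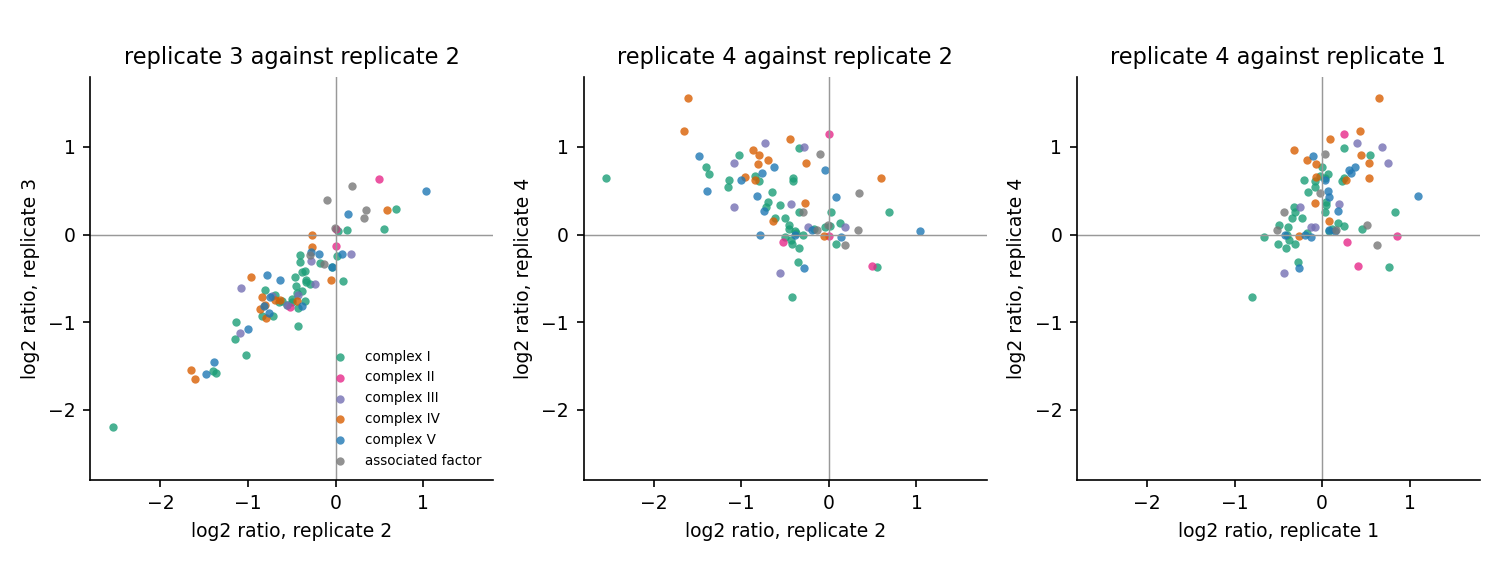
Log2 ratios of the 85 member genes on pairs of arrays, each point 1 gene coloured by complex. Replicates 2 and 3 follow each other closely (r = 0.91), replicate 4 runs opposite to replicate 2 (r = -0.48), and replicates 1 and 4 are loosely related (r = 0.39).

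The structural genes of complex I had medians of -0.082, -0.43, -0.65 and 0.19 on replicates 1 to 4, and 30 of 37 had a mean below 0. The 7 core subunits, which include those that carry the flavin and iron-sulphur centres, had a median of -0.21 ± 0.39 (SD, n = 4), and the 30 accessory subunits had -0.25 ± 0.41. Neither median exceeded its spread over arrays. They were -0.10 and -0.15 with replicates 2 and 3 averaged, and for all 37 genes the median was -0.15, or 0.054 on replicates 1 and 4 alone. Of the 37, 1 was higher and 4 were lower at an unadjusted p under 0.05, against 8.5% and 10.9% of all genes tested, and 0 passed after limma's adjustment.

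Ndufa9, an accessory subunit beside the site where ubiquinone is reduced, was the member gene with the smallest p. Its processed signal was 39025, 42846, 27771 and 31171 in follistatin cells on replicates 1 to 4, against 68787, 56806, 56321 and 51556 in untreated cells. Every follistatin value lay below every untreated value. The log2 ratios were -0.80, -0.43, -1.05 and -0.72, with a mean of -0.75 ± 0.18 (SE), and limma gave an adjusted p of 0.122. Its probe lies at chr6:126771996-126772055 (mm9, minus strand).

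Among the complex I genes lower on all 4 arrays, 3 more had an unadjusted p under 0.05. Ndufb7, an accessory subunit of the membrane arm, had log2 ratios of -0.50, -0.42, -0.84 and -0.11 (limma adjusted p = 0.227). Ndufa13, also known as Grim19, had -0.66, -0.50, -0.77 and -0.03 (limma adjusted p = 0.222). Ndufv2, a core subunit with an iron-sulphur centre that was looked at after its values were seen, had -0.28, -0.35, -0.76 and -0.31 (limma adjusted p = 0.239). The difference was smallest on replicate 4 for Ndufb7 and Ndufa13 and smallest on replicate 1 for Ndufv2, and for all 3 it was largest on replicate 3.

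In the other direction, Ndufa10, an accessory subunit of the membrane arm, had 7238, 8681, 7073 and 8641 in follistatin cells, against 4103, 5314, 5645 and 7279 in untreated cells. Its log2 ratios of 0.84, 0.69, 0.30 and 0.26 were positive on every array, with a mean of 0.52 ± 0.19 (SE) and a limma adjusted p of 0.195. The ratio was highest on replicate 1.

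Ndufa11 had the lowest mean of all members and the highest SD over arrays, although the span between its highest and lowest array, 3.19, was just under the 3.20 of Cox8b. This accessory subunit of the membrane arm gave 1995, 516, 684 and 2719 in follistatin cells, against 1695, 2969, 3075 and 1750 in untreated cells. Follistatin was above untreated on replicates 1 and 4 and far below it on replicates 2 and 3, and both channels moved between arrays. The log2 ratios were 0.25, -2.54, -2.20 and 0.64, the SD of 1.64 exceeded the mean of -0.96, and limma gave an adjusted p of 0.372. With replicates 2 and 3 averaged the mean was -0.49, and on replicates 1 and 4 alone it was 0.45. Both probes of the gene had nearly the same mean, -0.96 and -0.95.

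Complex II is the only complex whose subunits all come from the nucleus, and its genes did not lie with the others. Its 4 genes had medians of 0.35, 0.0028, -0.034 and -0.056 on replicates 1 to 4, a mean of 0.065 ± 0.19 (SD, n = 4), and the mean was -0.029 without replicate 1 and 0.092 with replicates 2 and 3 averaged. Sdha, the flavoprotein that oxidises succinate, had log2 ratios of 0.41, 0.50, 0.63 and -0.36 for its brightest probe, while its 3 probes had means between -1.10 and 0.30, so the gene had no single direction. Sdhb, the iron-sulphur subunit, had 0.29, -0.52, -0.83 and -0.09. The membrane anchors each had 1 high array: Sdhc had 0.86, 0.0012, -0.13 and -0.02, and Sdhd had 0.26, 0.0043, 0.06 and 1.14. The smallest limma adjusted p among the 4 genes was 0.405, that of Sdhd.

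The 8 complex III genes had medians of 0.058, -0.49, -0.65 and 0.33, with a mean of -0.19 ± 0.46 (SD, n = 4). It was -0.078 with replicates 2 and 3 averaged, and on replicates 1 and 4 alone it was 0.19. Uqcrc1, a core protein on the matrix side of the complex, gave 35240, 31152, 25535 and 33408 in follistatin cells, against 48431, 45246, 43748 and 45431 in untreated cells. Here too every follistatin value lay below every untreated value. The log2 ratios were -0.44, -0.56, -0.81 and -0.44, with a mean of -0.56 ± 0.17 (SE), and limma gave an adjusted p of 0.156. Its second tested probe had a mean of -0.41. The position of the brighter probe is chr9:108851624-108851683 (mm9).

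Other complex III subunits had the divided pattern. Uqcrfs1, the Rieske iron-sulphur protein, had log2 ratios of -0.25, -1.09, -1.13 and 0.31 (limma adjusted p = 0.322), and its mean of -0.54 became 0.032 on replicates 1 and 4 alone. Uqcr10 and Uqcr11 are small subunits. Uqcr10 had 0.68, -0.29, -0.30 and 1.00, and Uqcr11 had 0.40, -0.72, -0.70 and 1.04. Both lay above 0 on replicates 1 and 4 and below 0 on replicates 2 and 3, and the mean of Uqcr11 was 0.0039.

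Complex IV had the widest spread of medians over arrays among the complexes. Its 14 tested genes had medians of 0.089, -0.75, -0.75 and 0.81, and 12 of 14 were lower on replicates 2 and 3 and higher on replicate 4. The mean of -0.15 ± 0.75 (SD, n = 4) turned to 0.049 without replicate 2, to 0.051 without replicate 3, to 0.059 with replicates 2 and 3 averaged, and to 0.45 on replicates 1 and 4 alone.

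Cox4i1, the general form of the subunit that binds ATP as an allosteric regulator, was higher with follistatin on all 4 arrays. Its signal was 131814, 168722, 115602 and 145865 in follistatin cells, against 91878, 110611, 93273 and 93712 in untreated cells. All follistatin values lay above all untreated values. Log2 ratios of 0.54, 0.59, 0.28 and 0.65 gave a mean of 0.51 ± 0.17 (SE), and limma gave an adjusted p of 0.172. With normexp background correction and loess the mean was 0.34. The probe lies at chr8:123197924-123197983 (mm9). Cox5a, a matrix-side subunit, had 0.54, -0.27, -0.01 and 0.82.

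Several complex IV subunits come in a general form and a form of heart and skeletal muscle. Cox8b, the muscle form of the smallest subunit in rodents, gave 11392, 3893, 3691 and 15977 in follistatin cells, against 7329, 11673, 11318 and 5468 in untreated cells. Its log2 ratios of 0.65, -1.60, -1.65 and 1.55 spanned over 3 log2 units. Cox8a, the general form, had 0.08, -0.64, -0.75 and 0.16, the same signs on a smaller scale. The mean was -0.26 ± 0.57 (SE) for Cox8b and -0.29 ± 0.22 (SE) for Cox8a, with limma adjusted p of 0.812 and 0.487. With replicates 2 and 3 averaged the mean was 0.20 for Cox8b and -0.15 for Cox8a.

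Cox7a1, the muscle form, had log2 ratios of 0.10, -0.45, -0.76 and 1.09, and Cox7a2, its general partner, had 0.45, -0.80, -0.95 and 0.90. Cox6a2, the muscle form, had -0.07, -0.96, -0.49 and 0.66, and Cox6a1, the general form, had -0.08, -0.27, -0.14 and 0.36. In each of these 3 pairs, Cox8 included, the muscle and the general form had the same sign on all 4 arrays. Cox6b1, the general form of a subunit at the dimer interface, had 0.43, -1.65, -1.55 and 1.18, and its mean of -0.40 became 0.81 on replicates 1 and 4 alone. Its testis form Cox6b2 was dim, with signals from 202 to 244 in follistatin cells and from 206 to 304 in untreated cells, and had -0.27, -0.06, -0.52 and -0.02. Cox7b had -0.17, -0.69, -0.75 and 0.86. Ndufa4, first described in complex I and now placed in complex IV, was counted with complex I by its name and had 0.25, -0.35, -0.41 and 0.98, the complex IV pattern. Among these paired genes the smallest limma adjusted p was 0.172, that of Cox4i1.

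The tissue forms Cox4i2 (lung), Cox7b2 and Cox8c (testis) were not bright enough to test, and 1 of 2 Ndufs4 probes was not either. These 4 probes complete the 126. Their mean log2 ratios, from -0.38 to 0.28, rest on signals near background.

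**Figure D3:**
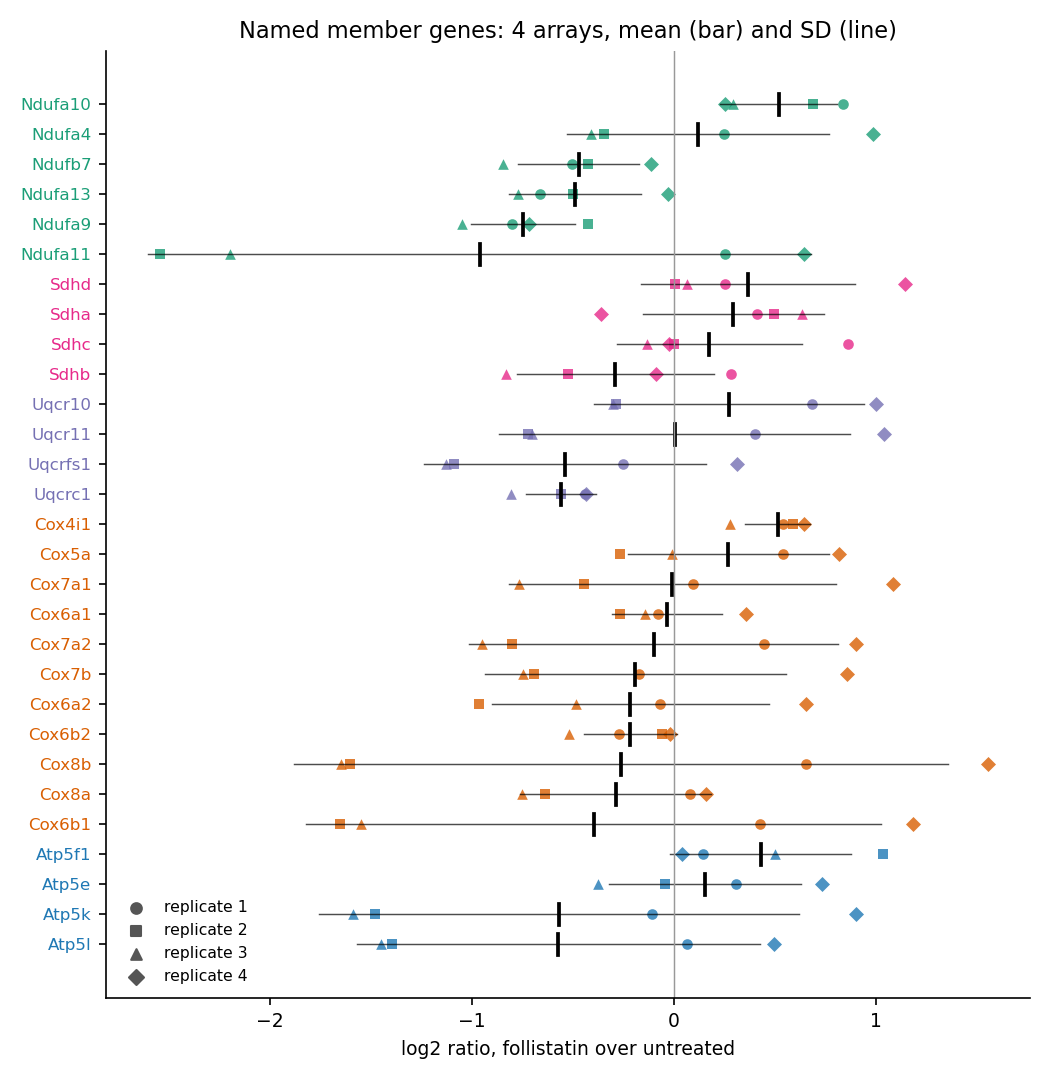
Log2 ratio of follistatin over untreated signal on each of 4 arrays (symbols) for 29 named member genes, ordered by complex and coloured as in the plot of all members, with the mean as a vertical bar and the SD as a horizontal line. Ndufa9, Ndufa13, Ndufb7, Uqcrc1 and Cox6b2 stay below 0 and Ndufa10, Sdhd, Cox4i1 and Atp5f1 above 0 on all 4 arrays, while Ndufa11, Cox8b and Cox6b1 span the widest ranges.

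The 15 complex V genes had medians of 0.074, -0.63, -0.52 and 0.43, a mean of -0.16 ± 0.50 (SD, n = 4), and the parts of the enzyme differed in size. The 5 genes of the catalytic F1 head and central stalk had medians of 0.074, -0.19, -0.22 and 0.049. The 4 of the peripheral stalk, which holds the head still, had 0.11, -0.15, -0.37 and 0.24. The 3 c ring genes, all encoding the same mature proton-carrying subunit, had 0.18, -0.76, -0.72 and 0.26. The 3 small membrane subunits had 0.030, -1.39, -1.45 and 0.63. The order on replicates 2 and 3 thus put the membrane parts lowest. With replicates 2 and 3 averaged, the means were -0.028 for the head, 0.0087 for the peripheral stalk, -0.094 for the c ring and -0.26 for the small membrane subunits, and on replicates 1 and 4 alone all 4 were above 0, from 0.062 to 0.33. For the whole complex the averaged value was -0.034. Differences between these parts of the enzyme were not tested.

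Atp5l, the g subunit of the membrane part, gave 31458, 12784, 11847 and 31553 in follistatin cells, against 30482, 33147, 31715 and 22491 in untreated cells. The groups were alike on replicate 1, and the follistatin signal was the lower on replicates 2 and 3 and the higher on replicate 4. Its mean log2 ratio of -0.57 became 0.28 on replicates 1 and 4 alone. Atp5k, the e subunit, had log2 ratios of -0.11, -1.48, -1.59 and 0.90, close to those of Atp5l at 0.06, -1.39, -1.45 and 0.50. The scanner file places the Atp5k probe on chromosome Y of mm9 and RefSeq lists the gene on chromosome 5, so its signal may include a near-identical copy and its value is uncertain. Atp5e, the epsilon subunit of the central stalk, had 0.31, -0.04, -0.37 and 0.73. Atp5f1, the b subunit of the peripheral stalk, had 0.15, 1.04, 0.50 and 0.04 for its brightest probe, while its 3 probes had means between -0.24 and 0.55. The smallest limma adjusted p among these 4 genes was 0.308, that of Atp5f1.

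Members outside the naming rule were looked at after their values were seen. Ndufs1, the largest core subunit of complex I, varied least, with log2 ratios of 0.18, 0.13, 0.05 and 0.13. Atp5a1, the alpha subunit of the F1 head, had -0.27, -0.28, -0.20 and -0.38, although its second tested probe had a mean of 0.29. Ndufa1 and Ndufa3, small accessory subunits, resembled Atp5l: Ndufa1 had 0.0033, -1.41, -1.56 and 0.78, and Ndufa3 had 0.07, -1.36, -1.59 and 0.69. The associated factors had medians of 0.033, -0.0080, 0.19 and 0.11, and 5 of 7 had a mean above 0. Ndufaf1, an assembly factor of complex I, was higher on all 4 arrays, at 0.16, 0.33, 0.19 and 0.05.

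Probes of 1 gene did not always have 1 direction. Of 28 member genes with several tested probes, 10 had probes with means of opposite sign. Besides Sdha above, the 4 probes of Atp5b, the beta subunit that makes ATP, had means from -0.82 to 0.57, and the 3 of Ndufc1, a small complex I subunit, had means from -0.37 to 0.79. Gene values here are those of the brightest probe, and the median of the members was -0.16 with the median of a gene's probes in its place.

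Among members, the ratio on replicates 2 and 3 was lower where the probe begins near the 5′ end of its transcript as the file annotates it. Over the 85 member genes the ratio correlated with the log2 of the probe's start with r = 0.59 on replicate 2, r = 0.62 on replicate 3, r = -0.47 on replicate 4 and r = -0.078 on replicate 1. Over the other genes tested, the 4 values were 0.15, 0.14, 0.0072 and -0.045, in the order of replicates 2, 3, 4 and 1. The 35 members with probes that start before base 400 had medians of 0.049, -0.70, -0.76 and 0.63 on replicates 1 to 4. The 33 between 400 and 800 had -0.069, -0.39, -0.54 and 0.19, and the 17 from 800 on had 0.033, -0.099, -0.20 and 0.042. The 1844 other genes of the first range had -0.0025, -0.21, -0.28 and 0.021. With replicates 2 and 3 averaged, the 3 ranges of members had means of -0.013, -0.11 and 0.019, and on replicates 1 and 4 alone 0.34, 0.059 and 0.037. The correlation of the start with a member's mean was 0.38 over all 4 arrays, 0.13 with replicates 2 and 3 averaged and -0.34 on replicates 1 and 4 alone. The ranges were chosen after the data were seen, and their genes share arrays. A short transcript can hold only probes with a low start, and transcript length was not used here.

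Several named members with low ratios on replicates 2 and 3 had such probes, and others did not. The Ndufa11 probe starts at base 56 of its transcript, that of Atp5l at base 50, that of Atp5k at base 91, that of Cox6b1 at base 99 and that of Cox8b at base 292. By contrast, the probes of Cox7a2, Uqcrfs1, Ndufa9, Ndufa13 and Uqcrc1, also low on replicate 3, start at bases 515, 1071, 1147, 1168 and 1593. In 3688 transcripts of the whole array with tested probes at least 500 bases apart, the upstream minus the downstream probe had a median of 0.20 on replicate 1, -0.14 on replicate 2, -0.11 on replicate 3 and -0.078 on replicate 4. Only 6 of these transcripts are members. The part of probe position or RNA quality in the members' ratios was not tested.

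**Figure D4:**
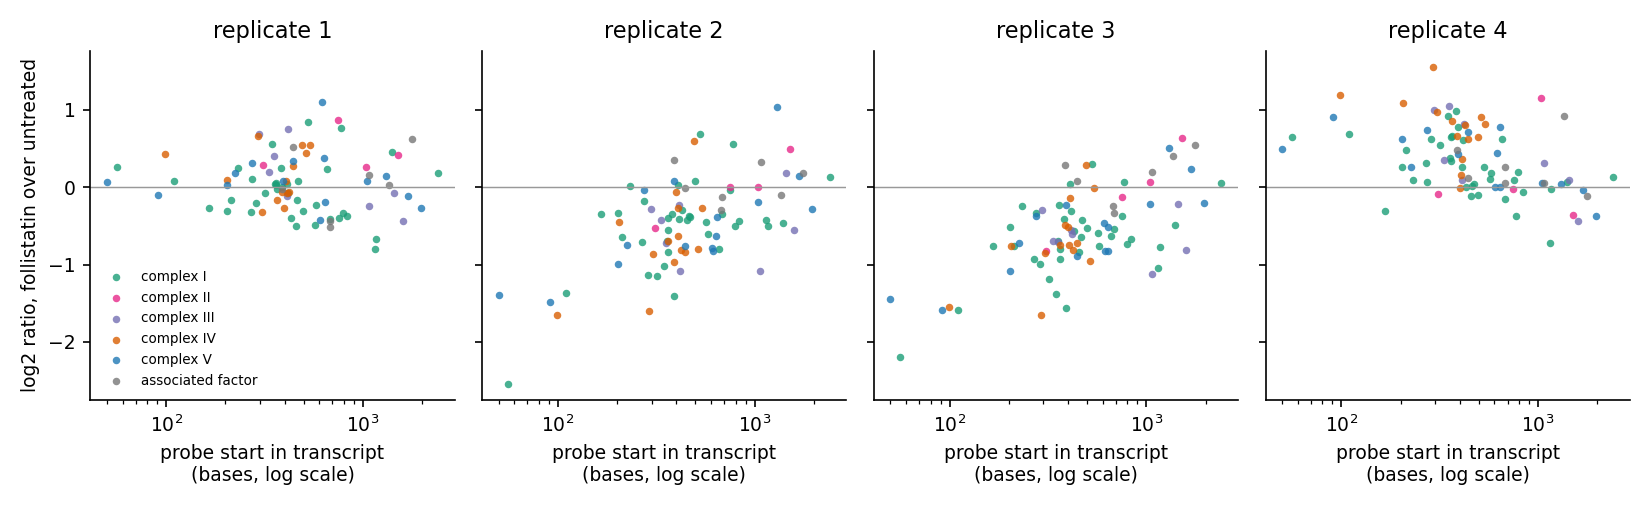
Log2 ratio of follistatin over untreated signal against the base at which the probe starts in its annotated transcript (log axis), 1 panel per array, each point 1 of 85 member genes. On replicates 2 and 3 the lowest ratios belong to probes with low starts (r = 0.59 and 0.62), on replicate 4 the relation runs the other way (r = -0.47), and replicate 1 has little slope (r = -0.078).

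Promoters of the members were read from RefSeq (GRCm38.p6) as windows of 300 bases, 250 before and 50 after a gene's start. A match was found for 74 of 88 member genes, with 80 windows. In myoblasts as elsewhere, NRF-1 and the ETS factor GABP are known activators of nuclear genes for the respiratory chain. The NRF-1 core, GCGCA and GCGC with any 1 base between them (either strand), was present in 23.8% of member windows and 4.6% of all 32851 windows. The ETS core CCGGAAG (either strand) was present in 21.2% and 8.86%. The muscle E-box CAGCTG, a core of MyoD and myogenin sites, was present in 7.5% of member windows and 16.3% of all, and the TATAAA box in 10.0% and 13.6%. The general E-box CANNTG, which includes CAGCTG, was present in 70.0% and 72.3%. A nuclear receptor half-site AAGGTCA was present in 10.0% and 4.72%, and the MEF2 core, CTA and TAG with any 4 bases between them, in 1.25% and 3.69%.

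The windows of 5 genes are shown for members that the values above turn on, with matches to the NRF-1 core, the ETS core, CAGCTG and TATAAA on either strand in capitals. Ndufa11 had the lowest mean, Uqcrc1 was lower on all arrays, Cox6b1 was among the most divided, and Cox8a and Cox8b are the general and the muscle form of 1 subunit. The windows lie at chr17:56717512-56717811 (plus strand) for Ndufa11, chr9:108936398-108936697 (plus) for Uqcrc1, chr7:30626065-30626364 (minus) for Cox6b1, chr19:7217567-7217866 (minus) for Cox8a and chr7:140900397-140900696 (minus) for Cox8b.
Ndufa11: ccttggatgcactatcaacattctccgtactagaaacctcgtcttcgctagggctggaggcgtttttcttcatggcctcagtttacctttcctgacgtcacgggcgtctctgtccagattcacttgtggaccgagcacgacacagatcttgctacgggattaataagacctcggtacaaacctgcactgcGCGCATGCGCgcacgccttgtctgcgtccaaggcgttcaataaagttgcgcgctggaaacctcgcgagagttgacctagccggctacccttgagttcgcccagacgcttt
Uqcrc1: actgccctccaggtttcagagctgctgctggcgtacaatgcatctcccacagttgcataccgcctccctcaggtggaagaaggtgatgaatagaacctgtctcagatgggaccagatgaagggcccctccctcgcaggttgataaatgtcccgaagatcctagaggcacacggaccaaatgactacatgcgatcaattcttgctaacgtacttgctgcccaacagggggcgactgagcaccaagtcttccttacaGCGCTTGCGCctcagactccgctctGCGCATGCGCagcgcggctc
Cox6b1: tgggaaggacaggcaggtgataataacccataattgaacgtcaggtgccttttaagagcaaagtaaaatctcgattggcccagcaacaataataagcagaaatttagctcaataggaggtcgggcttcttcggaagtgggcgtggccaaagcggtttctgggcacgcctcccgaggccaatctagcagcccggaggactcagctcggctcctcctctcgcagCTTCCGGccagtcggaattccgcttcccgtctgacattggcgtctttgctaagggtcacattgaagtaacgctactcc
Cox8a: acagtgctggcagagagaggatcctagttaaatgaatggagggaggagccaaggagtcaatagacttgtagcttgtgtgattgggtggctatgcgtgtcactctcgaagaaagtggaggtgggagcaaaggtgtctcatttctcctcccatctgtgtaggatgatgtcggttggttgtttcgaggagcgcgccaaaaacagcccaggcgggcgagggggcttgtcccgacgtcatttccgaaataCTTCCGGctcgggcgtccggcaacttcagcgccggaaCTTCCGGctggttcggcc
Cox8b: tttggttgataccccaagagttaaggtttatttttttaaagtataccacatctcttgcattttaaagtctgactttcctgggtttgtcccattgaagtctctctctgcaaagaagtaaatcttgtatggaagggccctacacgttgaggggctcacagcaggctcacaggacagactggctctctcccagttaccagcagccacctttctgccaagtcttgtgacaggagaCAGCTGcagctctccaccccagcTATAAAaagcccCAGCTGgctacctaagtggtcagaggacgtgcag
The capitals in the Ndufa11 window mark 1 NRF-1 core and those in the Uqcrc1 window mark 2. The capitals in Cox6b1 mark 1 ETS core. In Cox8a they mark 2 ETS cores, and in Cox8b they mark 2 CAGCTG sites and 1 TATAAA box, so the general and the muscle form hold different motifs in these windows. No relation between motifs and ratios was tested. A match is a description and not a site shown to be bound.

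The rest of the pathway was read from fixed lists. None of the genes in any of these lists passed limma's adjusted threshold. The mitochondrial genome is represented by 4 probes, and their genes had medians of -0.045, -0.36, -1.07 and 0.18. COX2, a catalytic subunit of complex IV, had log2 ratios of -0.90, -2.31, -2.98 and 0.19, with an unadjusted p of 0.0224 and a limma adjusted p of 0.181. CYTB of complex III had 1.67, 0.26, -0.33 and 0.81. ND4 of complex I had -0.09, -0.13, -0.81 and -0.42, and ATP6 of complex V had -0.0040, -0.60, -1.34 and 0.17. All 4 were below 0 on replicate 3, and on the other arrays they lay on both sides of 0. The mean of the medians was -0.19 with replicates 2 and 3 averaged.

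Assembly factors outside the name rule had 25 tested genes, of which 4 were higher and 1 was lower at an unadjusted p under 0.05, against 8.5% and 10.9% of all genes tested. Sdhaf2, which helps insert the flavin into Sdha, had log2 ratios of 0.34, 0.78, 0.69 and 0.59 (limma adjusted p = 0.144). Tmem126b, a factor of complex I assembly, had 0.20, 0.94, 0.77 and 0.68 (limma adjusted p = 0.152). Both were positive on all arrays, including the ones on which most subunit genes were negative, but the 4 tested probes of Sdhaf2 had means from -0.21 to 0.60. Foxred1 and Acad9 are also complex I assembly factors. Foxred1 had 0.70, 0.14, 0.69 and 0.65, and Acad9 had 0.35, 0.37, 0.60 and 0.62. Their means were 0.54 and 0.48, but the second tested probe of Acad9 had a mean of -0.13.

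Mobile carriers and related genes outside the rule had 14 tested genes. Of these, 2 were higher and 2 lower at an unadjusted p under 0.05, against 8.5% and 10.9% of all genes tested. Cycs, cytochrome c, had log2 ratios of 0.36, 0.55, 0.36 and 0.47 (limma adjusted p = 0.207). Coq7, a hydroxylase of ubiquinone synthesis, had -0.83, -0.65, -1.02 and -0.03, with a mean of -0.14 for its second probe. Coq3, counted among the higher, was dim: its signal was 33.3 to 58.2 in follistatin cells, well above background on all 4 arrays, and 15.0 to 32.0 in untreated cells, well above background on 1. It passed the filter through the follistatin channel alone. Etfb, a subunit of the electron transfer flavoprotein, had -0.70, -0.40, -0.86 and -0.32. Cycs was above 0 and Coq7 and Etfb were below 0 on every array.

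The tricarboxylic acid cycle and pyruvate dehydrogenase, which supply the chain with electrons, had 18 tested genes with medians of -0.066, 0.23, 0.18 and -0.19. Set beside the members on replicates 2, 3 and 4, each of these medians has the other sign, and the difference between the lists was not tested. The mean of the medians was 0.037 over the 4 arrays and -0.018 with replicates 2 and 3 averaged. Pdhb had log2 ratios of 0.74, 0.33, 0.58 and 0.63 (limma adjusted p = 0.152), and Mdh2 had -0.49, -0.74, -0.81 and -0.12 (limma adjusted p = 0.191). At an unadjusted p under 0.05, 2 genes of this list were higher and 1 was lower, against 8.5% and 10.9% of all genes tested.

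Regulators of mitochondrial biogenesis had 20 tested genes, of which 4 were higher and 0 lower at an unadjusted p under 0.05, against 8.5% and 10.9% of all genes tested. The mean was below 0 in 12 of the 20, and the median of the gene means was -0.10. Tfam, which packages and transcribes mitochondrial DNA, had log2 ratios of 0.36, 0.90, 0.79 and 0.17 (limma adjusted p = 0.193). Gabpa, the DNA-binding subunit of GABP, had 0.45, 0.53, 0.49 and 0.30 (limma adjusted p = 0.199). Polg, the mitochondrial DNA polymerase, had 0.57, 0.59, 0.97 and 0.09, and Hif1a had 0.26, 0.72, 0.46 and 0.35. Their means were 0.56 and 0.45. These values are of the brightest probes, which were positive on all 4 arrays. The tested probe with the lowest mean was at -0.29 for Tfam and at -0.066 for Gabpa. Sirt1, a deacetylase that acts on Ppargc1a, had 0.71, -2.63, -2.40 and -0.46 for its brightest probe, while its other probe had a mean of 0.30. Ppargc1a and Ppargc1b, coactivators of NRF-1 and the estrogen-related receptors, had means of -0.23 and -0.31, and the second probe of Ppargc1a had a mean of 0.18. Each lay on both sides of 0: Ppargc1a had -0.51, 0.06, -0.65 and 0.17, and Ppargc1b had 0.29, -0.85, -1.12 and 0.43. No regulator passed limma's adjusted test.

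Ribosomal protein genes were read as further large sets of genes. The 82 cytoplasmic ribosomal protein genes had medians of 0.11, -0.18, -0.13 and 0.17 on replicates 1 to 4, and the 76 mitochondrial ones had -0.030, -0.22, -0.18 and 0.14. The signs on replicates 2, 3 and 4 were those of the members, at a smaller size, and with replicates 2 and 3 averaged the means were 0.046 and -0.043. The likeness to the members was not tested.

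**Figure D5:**
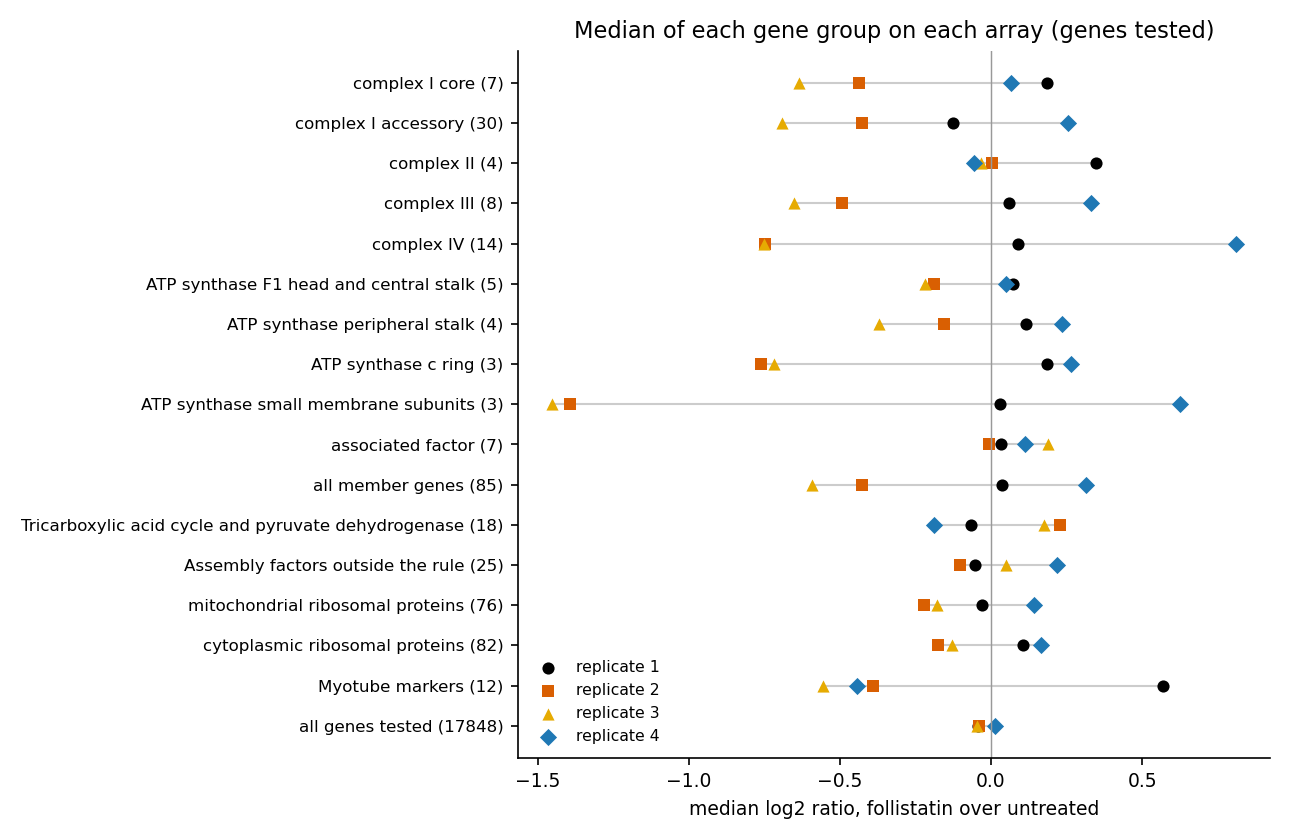
Median log2 ratio of follistatin over untreated signal on each of 4 arrays (symbols) for the parts of the respiratory chain, for other mitochondrial lists, for ribosomal proteins, myotube markers and all genes tested, with the number of genes in brackets. The small membrane subunits of ATP synthase and complex IV spread most, the tricarboxylic acid cycle runs opposite to the members on replicates 2, 3 and 4, and all genes tested stay within -0.046 and 0.013.

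The cells carried the markers of differentiated muscle in both groups. The summed signal of 12 myotube markers was 1104070 to 1623060 in follistatin cells and 1731640 to 2095540 in untreated cells, and their median log2 ratio was 0.57 on replicate 1, -0.39 on replicate 2, -0.56 on replicate 3 and -0.44 on replicate 4. At an unadjusted p under 0.05, 2 of the 12 were lower and 0 higher, against 10.9% and 8.5% of all genes tested. The 2 lower were Tnnc2, fast troponin C, at -0.75, -0.89, -1.30 and -0.64, and Myh8, perinatal myosin, at -0.31, -0.38, -0.49 and -0.44 (limma adjusted p of 0.109 and 0.225). The Myh8 values are of its brightest probe, and its other tested probes had means of 0.012 and 0.48. Myog, the transcription factor myogenin, was also below 0 on all arrays, at -0.10, -0.41, -0.42 and -0.45, and Myh3, embryonic myosin, had 0.37, -0.80, -1.21 and -0.59. Ckm, muscle creatine kinase, had log2 ratios of 1.07, -0.89, -1.24 and -0.81, and Acta1, skeletal actin, had 0.89, -0.40, -0.62 and -0.49. Of the 12 markers, 8 had a mean below 0 and 4 above 0. The 4 included Mb at 0.96, -0.01, -0.38 and 0.96 and Tnnt3 at 0.86, 0.41, -0.07 and -0.01. The others were Ckmt2 at 0.12, 0.16, 0.14 and 0.39 and Des at 1.77, -0.06, -0.38 and -0.87. The median of the markers, like that of the members, was below 0 on replicates 2 and 3, but on replicate 4 it was below 0 where that of the members was above 0. Of 5 markers of proliferating myoblasts, 2 were higher at an unadjusted p under 0.05, against 8.5% of all genes tested. They were Top2a at 1.01, 0.89, 0.72 and 0.84 and Mki67 at 0.25, 0.48, 0.30 and 0.61 (limma adjusted p of 0.105 and 0.235). The part of the cell mixture in the members' ratios was not tested.

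Markers of blood, endothelial and fat cells were dim. The summed signal of blood cell markers (3 of 4 tested) was 369 to 568 in follistatin cells and 382 to 629 in untreated cells. For endothelial markers (1 of 4 tested) it was 41.5 to 52.2 in follistatin cells and 45.8 to 84.0 in untreated cells, and for adipocyte markers (1 of 5 tested) it was 23.3 to 38.4 in follistatin cells and 23.4 to 41.0 in untreated cells. Epithelial and neural markers (5 of 6 tested), some of which cultured myoblasts are known to express, summed to 2785 to 3456 in follistatin cells and 3589 to 4431 in untreated cells. Most of this signal was that of Tubb3, with 2638 to 3314 in follistatin cells and 3320 to 4267 in untreated cells. Its log2 ratios were -0.05, -0.36, -0.72 and -0.43.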

How the data were processed

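RNA of 4 pairs of C2C12 cultures was compared on 4 two-colour Agilent arrays. The labels call the replicates biological, and p-values measure the spread between these 4 arrays only. The authors' deposited scanner files give spot intensity for both channels after Agilent Feature Extraction (10.7.3.1 per the submitters' processing notes, 10.10.1.1 for replicate 4 per the file headers), with background subtraction and dye normalization already in the processed signal per the file headers. The LogRatio of the scanner files is a deposited log10 value of red over green. The authors' deposited table of log2 values matched the log2 of the processed green over red signal on every array (r of 1). The mean absolute difference was at most 3.03e-07 on any array. The deposited values had column medians of -0.16 to 0.17 and were used as an alternative.

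The log2 ratio of the processed green (follistatin) over red (untreated) signal was taken. Spots that the scanner marked as non-uniform or outlying were left out, repeated spots were averaged and arrays were centred on the median of the tested probes, which moved them by at most 0.030. A probe was tested if well above background in 1 channel on at least 3 of 4 arrays. limma 3.58.1 in R 4.3.3 (lmFit, eBayes) tested the mean against 0 over 27017 probes, with Benjamini-Hochberg adjustment and a threshold of 0.05, and was tested on simulated data. A gene takes the value of its brightest tested probe. Gene names and mm9 positions come from the scanner file of replicate 4, joined by probe. Of member probes, 113 matched RefSeq by accession, 5 of them under another symbol. No array is a dye swap of another, so no dye term could be fitted. No per-sample column was left unused. The precision is limited by the number of arrays, and no spot was saturated.

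Genes are named by a rule: in each complex the 2 genes of highest and the 2 of lowest mean log2 ratio, every complex II gene, the 6 members of smallest p, and every gene of the general and tissue isoform pairs; of other lists, up to 4 of smallest p, any regulator, and Ckm, Acta1, Myh3 and Myog. Further myotube and myoblast markers were named after their values were seen. The members, lists and rules were chosen with earlier results of these data known. Alternatives were normexp with loess, no centring, the authors' table, other filters, leaving out or averaging arrays, the slide as a random block, array weights, the probes' median and the methods' t-test. A gene that the rule names is not reported here.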

Additional observations from a re-analysis of the deposited data

Results flagged for a closer look

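Of 36 results with 4 array values (the named member genes and the medians of the complexes and of all members), 2 had 1 array far from the others, and chance gives about 1 in 20. Sdhc had a log2 ratio of 0.86 on replicate 1, while its other arrays lay between -0.13 and 0.0012. The median of the 4 complex II genes was 0.35 on replicate 1 and between -0.056 and 0.0028 on the other arrays.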

How the results depend on the processing

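The main counts were 2 probes called of all and 0 of the members. The count over all probes was 0 with normexp and loess (5159 at an unadjusted p under 0.05), 0 with a filter that asks for both channels above background on each array (4900), 0 with replicates 2 and 3 averaged (3061), 0 on replicates 1 and 4 only (1852), and 0 to 0 when 1 replicate was left out. Weighting arrays called 6536 of 27017 probes and 25 of 122 member probes. Of the named genes, those called under weights were Ndufa9, Ndufa11, Ndufb7, Ndufa13, Uqcrc1, Uqcrfs1, Atp5k and Atp5l. The weights rest on how closely arrays follow the common mean, and replicates 2 and 3 follow each other. No other alternative called a member probe, and 8 of 420 values of named genes passed the threshold, all under weights. Member probes at an unadjusted p under 0.05 numbered 15 with all 4 arrays (12.3%, against 20.7% of all probes), 12 without replicate 1 (9.84%, against 20%), 4 without replicate 2 (3.28%, against 11.6%), 3 without replicate 3 (2.46%, against 9.56%) and 39 without replicate 4 (32%, against 28.3%). The median of complex I was 0.054, of complex III 0.19 and of complex V 0.25 on replicates 1 and 4 only, against -0.24, -0.19 and -0.16 on all 4, and complex I lay between -0.38 and -0.11 when 1 replicate was left out. The cause of these shifts was not tested. The main test is paired, because each array holds both RNAs of a replicate and gives 1 ratio, and the mean of these ratios was tested against 0. The limits are 4 arrays, 1 dye orientation and short probes of which several can stand for a gene with different signs.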
